A study of Mus musculus with 30 samples.

Results

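The 45 genes described here encode the extracellular matrix of skeletal muscle, the enzymes and growth factors that build and remodel it, and surface or secreted markers of the fibroblasts that make most of it. They were chosen by name as extracellular matrix and fibroblast genes, by a rule that uses no measured value but with earlier results of these data known, and all 45 were found among the 56748 genes of the deposited count table. They comprised 6 fibril-forming collagens, 6 basement membrane components, 6 network, beaded or fibril-associated collagens, 10 adhesive, elastic and matricellular glycoproteins, 5 proteoglycans, 7 matrix enzymes and inhibitors, 2 growth factors and signals, and 3 fibroblast markers. All 45 passed the filter on low counts and were tested with 17518 genes in all. The member called Ctgf is listed in the count table under its current symbol, Ccn2.

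RNA-seq was performed on quadriceps of 30 mice in 8 groups, and the question put to these genes was whether matrix and fibroblast transcripts differ in the muscle of myotonic dystrophy type 1 (DM1) model mice and whether they move after treatment. The model was the homozygous HSA-LR line 20b on the FVB/N background, in which a human skeletal actin transgene with a long CTG repeat is transcribed in skeletal muscle fibres, so the line places the repeat RNA in muscle fibres and not by design in fibroblasts. Wild-type FVB/N mice (WT, n = 5, labelled 1 to 4 plus 1 whose number could not be assigned) and nontreated HSA-LR mice (NT, n = 8) received no treatment. The labels give an age of 8 weeks for HSA-LR and wild-type mice alike. The treated animals were HSA-LR mice, injected through the tail vein. Those given pacDNA-L9 numbered 4 at a dose of 5.3 mg/kg, 3 at a dose of 21.2 mg/kg and 3 at the highest dose, 42.4 mg/kg. A further 3 mice received free L9 and 2 received pacDNA-Scr, both at 5.3 mg/kg, and 2 received 40 nanomoles of the polymer alone (Brush). pacDNA-L9 is a locked nucleic acid antisense oligonucleotide complementary to CUG repeats, attached to a bottlebrush polymer of poly(ethylene glycol); pacDNA-Scr carries a scrambled sequence. The 2 higher doses were reached with repeated injections over 2 weeks, so dose, the number of injections and the time since the first injection cannot be told apart. Muscle was taken 2 weeks after the last injection, and each library is 1 mouse.

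Skeletal muscle fibres sit in a basement membrane of laminins, nidogen and type IV collagen, surrounded by an interstitial matrix in which type I and type III collagen fibrils bear load and type VI collagen links fibrils to the fibre surface. Fibroblasts and fibro-adipogenic progenitors, marked by the receptor Pdgfra, secrete most of the interstitial matrix, lysyl oxidases cross-link it, matrix metalloproteinases cut it, and TIMPs inhibit those proteases. In chronic muscle disease these genes often rise together as connective tissue accumulates, a process driven in part by transforming growth factor beta and connective tissue growth factor. Whole-muscle RNA holds all cell types together, so fewer fibroblasts and less matrix RNA per fibroblast cannot be told apart in any value below.

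The libraries held 13605309 to 26956558 counts (median 20141850.5). The 6 libraries of a second deposited set (mouse C of free L9 and of the 21.2 mg/kg group, C and D of the 5.3 mg/kg group, NT 7 and NT 8) stood apart on the first principal component, at 152 or above against -39.8 or below for the other 24, so the set was a term in the fit. Among the members this term passed the threshold for Timp3 (log2 difference 1.20, second set higher) and Lamb2 (-0.57), 2 of 45 against 24.9% of all genes. Of the Timp3 exon bases 21.3% lie under exons on the opposite strand. Free L9 mouse B also stood apart, with 14445 genes detected against at least 17478 in every other library and 22.3% of its counts from mitochondrial genes. In the second set 5 libraries held no counts from mitochondrial genes, while free L9 mouse C had 12.0%. The first set had 6.17% to 22.3%. From Xist and Y-linked counts 10 of the 30 mice were male, WT 1 was the only male WT mouse, and the 42.4 mg/kg mice were all female. The summed level of skeletal muscle fibre markers was 151085 to 250703 CPM in every library, as the tissue label implies.

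Levels below are CPM (counts scaled to library size) after TMM scaling, for each mouse in label order (WT 1 to 4 and the unnumbered mouse; A, B, C and, where present, D), and for NT as the lowest, the median and the highest of the 8 mice. Differences are log2 fold changes from edgeR's quasi-likelihood fit with the deposited set as a term, with the standard error (SE) and the p-value adjusted by Benjamini-Hochberg over all 17518 genes. A gene was called changed at an adjusted p under 0.05. Per kilobase of exon, the members spanned a wide range in NT muscle, from a mean of 67.7 CPM per kilobase for Sparc, a collagen-binding glycoprotein, through 48.8 for Thbs4, 46.3 for Fmod, 41.4 for Lamb2 and 35.2 for Col1a1, to 0.943 for Timp1, 0.729 for Col8a1 and 0.369 for Vcan.

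In untreated HSA-LR muscle no member was called changed against WT, where 5.31% of all genes were. The matrix genes did not show a joint rise: 13 of 45 had a log2 fold change above 0 and 32 below it, with a median of -0.12 against -0.03 over all genes tested. With edgeR, 9 of the 45 (20%) had an unadjusted p under 0.05 against 16.5% of all genes, and DESeq2 called 2 (Eln and Pi16, both lower), where it called 6.71% of all genes. In no member did the 8 NT and 5 WT mice fail to overlap, which 4.72% of all genes did.

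The lower average of the collagens in NT muscle rested on 1 WT mouse. Of the 15 collagens 14 had a log2 fold change below 0, with a median of -0.30. WT 1 had the highest level of all 15 collagens among the WT mice, at a median of 2.74 times the median of the other 4, and of 28 of the 45 members. Its summed level over all members was 9880 CPM, against 2881 to 4433 CPM in the other 4 WT mice and 2482 to 5141 CPM in the NT mice. Without WT 1, 7 of 15 collagens and 21 of 45 members were below 0, the median was 0.02 for both, and 0 members were called. WT 1 was also the only male WT mouse. With sex as a term in the fit, 13 of 15 collagens and 30 of 45 members were below 0, the collagen median was -0.30, and 0 members were called.

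Col1a1, the α1 chain of type I collagen (chr11:94827050-94843868, GRCm39), shows this best. Its level was 1934, 203, 380.0, 230.0 and 385 CPM in the WT mice and 136, 227 and 435 CPM in NT. The groups overlapped, with WT 1 far above every other mouse. The log2 fold change was -1.25 (SE 0.44, adjusted p = 0.116). Col3a1, which forms type III collagen, stood at 1019, 186, 308, 228 and 344 CPM in WT and 181, 244 and 634 CPM in NT, again with WT 1 on top, and its log2 fold change was -0.19. Col4a1, the α1 chain of the basement membrane network collagen, was at 642, 131, 148, 128 and 443 CPM in WT and 93.8, 149 and 241 CPM in NT, where 2 WT mice rather than 1 were high, and gave -0.80 (SE 0.33, adjusted p = 0.203). Col15a1, a collagen of the zone between the basement membrane and the interstitium (chr4:47207582-47313179), was at 142, 37.7, 55.9, 47.3 and 64.9 CPM in WT and 19.6, 28.1 and 56.2 CPM in NT. Only 3 of the 8 NT mice reached the WT range, and the log2 fold change was -0.87 (SE 0.33, adjusted p = 0.152).

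**Figure D1:**
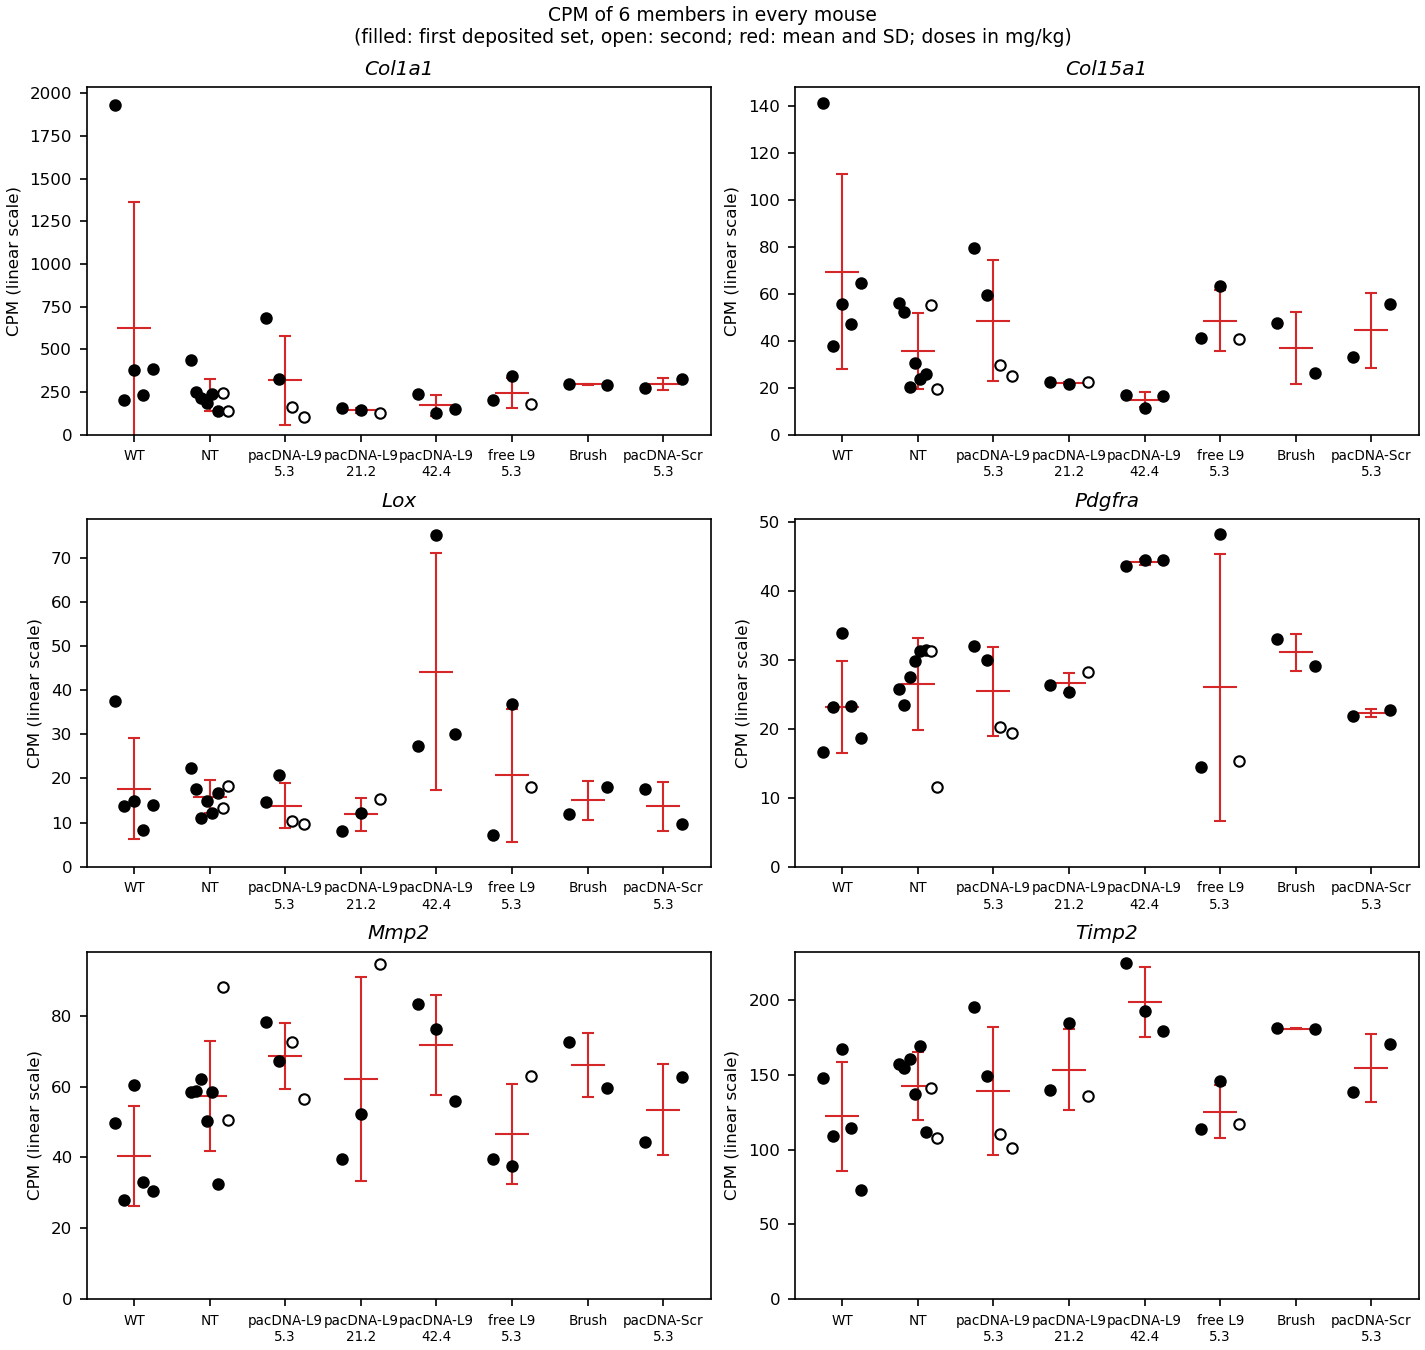
Levels in CPM (y axes, linear, each from 0) of Col1a1, Col15a1, Lox, Pdgfra, Mmp2 and Timp2 in each of the 30 mice by group; red marks give group means with SD and open points are the second deposited set. WT 1 stands alone at 1934 CPM of Col1a1, Lox is highest in the 42.4 mg/kg mice (27.3 to 75.2 CPM), and Pdgfra lies at 43.7 to 44.5 CPM in all 3 of them.

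Other members came close to the threshold in HSA-LR muscle in both directions. Pi16, a marker of the adventitial fibroblast pool, ranged over 16.9 to 28.7 CPM in WT and 8.94 to 20.9 CPM in NT (log2 fold change -0.81, SE 0.26, adjusted p = 0.0653). Eln, which encodes elastin, ranged over 13.9 to 121 CPM in WT and 11.7 to 30.4 CPM in NT (-1.25, SE 0.41, adjusted p = 0.0768), with WT 1 the highest. Thbs4, a thrombospondin of tendon and the muscle-tendon junction, ranged over 86.0 to 169 CPM in WT and 141 to 225 CPM in NT (0.64, SE 0.24, adjusted p = 0.128). None of these differences passed the threshold. Each did so in alternative fits, Pi16 and Eln with DESeq2 and with single mice left out, Thbs4 and Pi16 with only the WT and NT mice. For Eln the mouse left out was NT 7 or 1 of the low WT mice, WT 2, WT 3 and WT 4 (13.9, 17.9 and 16.1 CPM). Eln was not called without WT 1.

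The genes usually read as signs of fibrosis were likewise not called. Postn, which encodes the matricellular protein periostin, was at 39.1, 13.5, 10.1, 12.0 and 16.7 CPM in WT and 5.80, 9.82 and 29.6 CPM in NT. Ctgf, connective tissue growth factor, was at 52.3, 11.4, 14.2, 11.5 and 23.8 CPM in WT and 14.0, 24.6 and 42.0 CPM in NT. Tgfb1, the founding ligand of the TGF-beta family, was at 13.7, 6.01, 6.32, 8.35 and 22.9 CPM in WT and 6.92, 9.30 and 13.6 CPM in NT. In all 3 genes WT 1 or the unnumbered WT mouse was the highest of both groups, and the other WT mice fell within or below the NT range, except WT 1 for Tgfb1, which was just above it. Their log2 fold changes were -0.45 for Postn, 0.32 for Ctgf and -0.20 for Tgfb1. Timp1, a metalloproteinase inhibitor that is low in resting tissue, was at 1.43, 0.393, 0.602, 0.350 and 1.59 CPM in WT and 1.06, 1.61 and 3.13 CPM in NT. Its log2 fold change of 1.13 (SE 0.56, adjusted p = 0.311) rested on counts as low as 7 in WT 2 and WT 4, and the 2 groups overlapped. Of the Ctgf exon bases 36.5% lie under exons on the opposite strand, and since the strand setting of the counting is not given in the sources used here, part of its counts may not be its own.

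**Figure D2:**
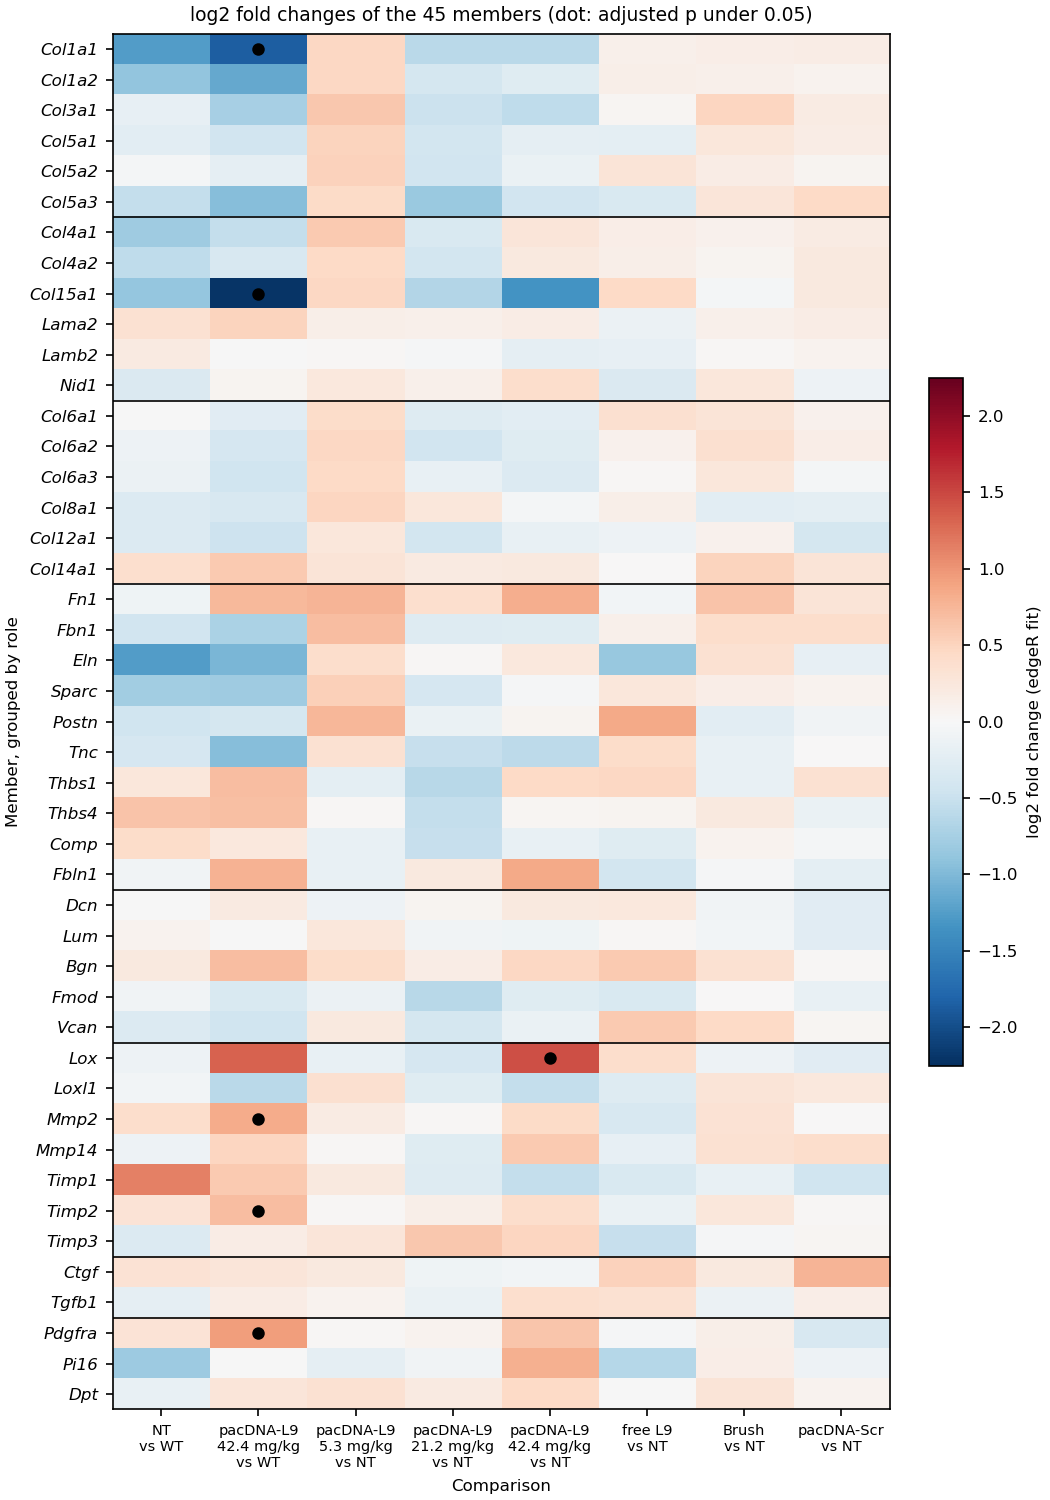
Log2 fold changes (colour, red higher and blue lower) of the 45 members (rows, by role) in the 8 comparisons (columns), with a dot on members called changed. Collagens are mostly blue in NT against WT (14 of 15) and red at 5.3 mg/kg against NT (15 of 15), and dots stand only in the columns of the 42.4 mg/kg mice (5 against WT and 1 against NT).

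In 7 lists of matrix pathways outside the 45 members, 12 of 202 tested genes (5.94%) were called in HSA-LR muscle, a share near the 5.31% of all genes. Of 39 tested glycoproteins and proteoglycans 3 rose and 0 fell. Cilp, a cartilage intermediate layer protein also made by fibroblasts, was at 20.9 to 52.8 CPM in the WT mice and 156 to 501 CPM in the NT mice, with no overlap (log2 fold change 3.14, SE 0.37, adjusted p = 3.1e-06). Ccn1, a matricellular relative of Ctgf, rose by 1.31 and Ecm1 by 0.98 on the log2 scale. Of 33 matrix proteases and inhibitors 2 rose, among them Mmp3 (1.95), and of 34 TGF-beta pathway genes 3 rose, Ltbp1 (0.89), Tgfb3 (0.58) and Itgav (0.52). Of 23 other collagens 1 fell, Col4a6 (-1.90), and of 16 basement membrane genes 1 rose. Of 30 matrix receptors 2 rose, among them Itgb1 (0.54), and of 27 genes of collagen processing and cross-linking 0 were called in either direction. Among cell type markers, 1 of 23 fibroblast markers (Gsn, 0.62) and 1 of 16 tenocyte markers (Tppp3, 1.28) rose, 1 of 17 macrophage markers rose (Cd68, 1.54), 3 of 10 Schwann cell markers fell (among them Prx, -1.004, and Mbp, -0.97), and 2 of 13 smooth muscle and pericyte markers fell (Mcam and Acta2).

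At 5.3 mg/kg pacDNA-L9 the members leaned upward as a body, but 0 were called by edgeR or by DESeq2, which called 0% and 0.0154% of all genes. Of the 45 members 38 had a log2 fold change above 0 against NT, with a median of 0.30 against 0.00 over all genes, and all 15 collagens were above 0 (median 0.46). Only Fn1, which encodes the adhesive glycoprotein fibronectin, had an unadjusted p under 0.05 with edgeR (0.77, SE 0.29). The 4 mice differed widely: Col1a1 was at 681, 328, 162 and 103 CPM, Col3a1 at 838, 643, 345 and 244 CPM and Col15a1 at 79.7, 59.6, 29.9 and 25.2 CPM. In each of these genes mice A and B were above mice C and D.

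That split followed the deposited set. In the first set, mice A and B against NT 1 to 6, 43 of 45 members were above 0, with a median log2 fold change of 0.77, 0 called, and 19 (42.2%) at an unadjusted p under 0.05 against 3.61% of all genes. In the second set, mice C and D against NT 7 and 8, 7 were above 0 and 38 below, with a median of -0.26. Fn1 gave 1.23 (SE 0.35) in the first set and 0.03 (SE 0.45) in the second, Fbn1, the main microfibril protein, 1.40 (SE 0.46) and -0.56 (SE 0.60), and Col1a1 1.04 (SE 0.58) and -0.52 (SE 0.76). Of the Fbn1 exon bases 20.1% lie under exons on the opposite strand. The difference between sets was below 0 for 44 of 45 members, with a median of -1.06, but it was called by edgeR for 0 members and 0% of all genes, with 9 members (20%) at an unadjusted p under 0.05 against 1.99% of all genes. With 2 treated mice in each set, set and animal cannot be told apart. The members varied together between mice, so the members at an unadjusted p under 0.05 are not independent of each other. In 0 members did all 4 treated mice lie beyond all NT mice, where 0.297% of all genes did.

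**Figure D3:**
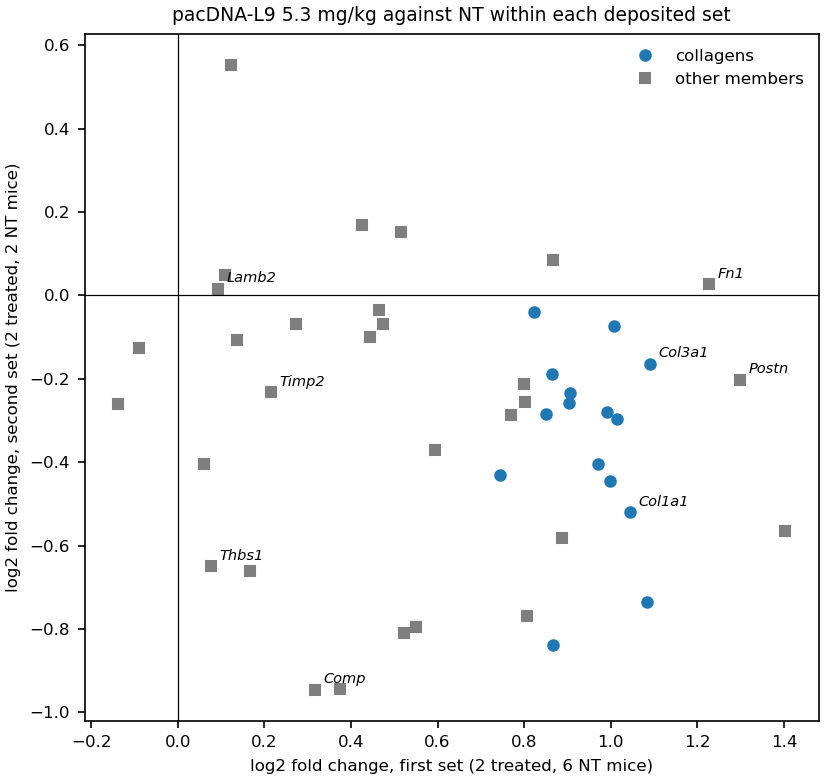
Log2 fold changes of the 45 members at 5.3 mg/kg pacDNA-L9 against NT within the first deposited set (x axis) and within the second (y axis), 1 point per gene. The points lie mostly at positive x (43 of 45) and below 0 on y (38 of 45).

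At 21.2 mg/kg the members leaned the other way, with 14 above 0 and 31 below (median -0.28) and 13 of 15 collagens below 0 (median -0.41). edgeR called 0 members here against 0.0685% of all genes, with 0 at an unadjusted p under 0.05, and DESeq2 called 0 (0.0585% of all genes). Col1a1 was at 156, 146 and 128 CPM, Col3a1 at 230.4, 201 and 277 CPM, Col4a1 at 123, 126 and 124 CPM and Col15a1 at 22.6, 21.8 and 22.3 CPM. All lay inside the NT ranges given above except Col1a1 in mouse C, which was below the lowest NT mouse. These 3 mice were close to each other in Col4a1 and Col15a1, with SDs of 1.55 and 0.411 CPM against 56.6 and 16.2 CPM in NT. In 2 members all 3 mice were below all 8 NT mice, where 0.303% of all genes were: Thbs4 at 79.4 to 140.3 CPM against 141 to 225 CPM (log2 fold change -0.54), and Thbs1, a thrombospondin that activates latent TGF-beta, at 7.94 to 10.1 against 10.1 to 24.0 CPM (-0.62). In both the highest treated mouse was less than 1 CPM below the lowest NT mouse.

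At 42.4 mg/kg the members did not move as a body against NT. There were 22 above 0 and 23 below, with a median of -0.02, and the roles parted: all 6 fibril-forming collagens were below 0 (median -0.35), while all 3 fibroblast markers (median 0.63) and 5 of 7 enzymes and inhibitors (median 0.43) were above it. Over a wider list of 23 tested fibroblast markers, 6 of them members, the median was 0.21. Col15a1 is in that list and was lower than in NT. The direction of the collagens turned in 1 alternative. Of the 15 collagens 12 were below 0 (median -0.24), but with the naming style of the libraries in the deposited table as a term, in the first set only, 6 were (median 0.12). All 3 mice of this dose share 1 style, as does 1 NT mouse, NT 6. edgeR called 1 of 45 members higher, where 2.28% of all genes were, and 0 lower (0.862%), 3.14% of all genes in either direction. With edgeR 8 members (17.8%) had an unadjusted p under 0.05, against 13.1% of all genes.

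The member called was Lox, lysyl oxidase, the enzyme that starts the cross-linking of collagen and elastin. Lox stood at 27.3, 75.2 and 30.1 CPM in the 42.4 mg/kg mice and at 11.0, 15.9 and 22.4 CPM in NT, so every treated mouse was above every NT mouse. The log2 fold change was 1.44 (SE 0.40, adjusted p = 0.0443). In the remaining groups Lox was at 37.5, 13.7, 14.8, 8.25 and 14.0 CPM (WT), 14.7, 20.7, 10.4 and 9.61 CPM (5.3 mg/kg), 7.99, 12.2 and 15.4 CPM (21.2 mg/kg), 7.14, 36.9 and 18.1 CPM (free L9), 11.9 and 18.1 CPM (Brush) and 17.6 and 9.79 CPM (pacDNA-Scr). WT 1 and the outlying free L9 mouse B were the only other mice above the lowest of the 42.4 mg/kg mice. Mouse B of the 42.4 mg/kg group decided the size of the Lox difference, which without it was 0.82 (adjusted p = 0.641). The call was also lost when any single NT mouse other than NT 1 was left out (adjusted p = 0.0508 to 0.0845). Against WT the Lox log2 fold change was 1.32 (SE 0.44, adjusted p = 0.0538).

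In 3 members the 42.4 mg/kg mice lay above all NT mice (3.95% of all genes did) and in 1 below (3.05%). Besides Lox these were Pdgfra, Timp2 and, in the downward direction, Col15a1. Pdgfra, the platelet-derived growth factor receptor that marks fibro-adipogenic progenitors (chr5:75311994-75358876), was at 43.7, 44.5 and 44.5 CPM at 42.4 mg/kg, 11.6, 28.6 and 31.5 CPM in NT and 16.6, 23.1, 33.9, 23.3 and 18.7 CPM in WT. The treated mice lay within 1 CPM of each other and above both control groups, at 0.63 against NT (SE 0.26, adjusted p = 0.255). Timp2, a secreted metalloproteinase inhibitor that also takes part in activating Mmp2 (chr11:118191887-118246566), was at 225, 193 and 179 CPM, against 108, 148 and 169.7 CPM in NT and 148, 109, 167, 115 and 72.7 CPM in WT. The gap to the highest NT mouse was small, and the log2 fold change was 0.40 (SE 0.18, adjusted p = 0.341). Col15a1 was at 16.8, 11.5 and 16.6 CPM, below every other mouse of the study, with a log2 fold change of -1.35 (SE 0.43, adjusted p = 0.0933). DESeq2 called both Lox and Col15a1 in this comparison, where it called 4.47% of all genes.

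Other members with an unadjusted p under 0.05 at 42.4 mg/kg were not called. Pi16 ranged over 19.8 to 25.1 CPM, 0.80 above NT on the log2 scale (SE 0.30, adjusted p = 0.177) and 0.01 below WT. Fn1 ranged over 157 to 195 CPM, against 50.2 to 160.1 CPM in NT (0.82, SE 0.33, adjusted p = 0.231). Fbln1, fibulin-1 of elastic fibres and basement membranes, ranged over 21.0 to 23.9 CPM, against 6.00 to 21.4 CPM in NT (0.86, SE 0.28, adjusted p = 0.108), so that it overlapped with the highest NT mouse only. Mmp14, a membrane-bound protease that activates Mmp2, gave 0.60 (SE 0.29, adjusted p = 0.373).

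Against WT, 5 members were called at 42.4 mg/kg, 3 higher (6.13% of all genes were) and 2 lower (3.85%), where 9.98% of all genes were called. DESeq2 called 6 members here, and 11.6% of all genes. In this comparison genotype and treatment differ together. Col15a1 had the firmest difference, with a log2 fold change of -2.21 (SE 0.46, adjusted p = 0.00185), and was the only member in which all 3 treated mice were below all 5 WT mice (9.16% of all genes were). It passed the threshold in all 20 alternatives tried, including the one without WT 1 (-1.79). Some vascular and basement membrane genes outside the members also fell here. Of 14 endothelial markers 3 were lower, Kdr (-1.26), Erg (-0.88) and Tek (-0.78), and 0 higher, with a median of -0.57 and a summed level of 398 to 510 CPM against 460.0 to 769 CPM in WT. Of 16 basement membrane genes 2 fell, Agrn (-1.29) and Lama4 (-1.08), and 1 rose, further than either fell. Their part in the Col15a1 value was not tested. The endothelial sum was 362 to 560 CPM in NT, where the median against WT was already -0.41. At 42.4 mg/kg against NT the endothelial median was -0.06. For the basement membrane genes these 2 medians were -0.41 and -0.18. Against NT, 0 genes of either list were called. Col1a1, at 241, 125 and 152 CPM against 1934, 203, 380.0, 230.0 and 385 CPM, was lower by the fit (-1.86, SE 0.60, adjusted p = 0.0493), but the groups overlapped and without WT 1 the value was -0.80 (adjusted p = 0.227). With sex as a term it was -1.65 (adjusted p = 0.0879).

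The 3 members that were higher than in WT were a protease, its inhibitor and the fibroblast receptor. Mmp2, gelatinase A, which degrades type IV collagen (chr8:93553902-93580049), was at 83.2, 76.2 and 55.9 CPM, against 49.7, 28.1, 60.4, 33.0 and 30.6 CPM in WT and 32.6, 58.5 and 88.0 CPM in NT. WT 3 lay above the lowest treated mouse, so the groups overlapped, and the log2 fold change against WT was 0.83 (SE 0.25, adjusted p = 0.0350). Timp2 gave 0.70 (SE 0.19, adjusted p = 0.0188) and Pdgfra 0.93 (SE 0.28, adjusted p = 0.0302), both with every treated mouse above every WT mouse. Of 20 alternatives Timp2 passed the threshold in 16, Mmp2 in 11 and Pdgfra in 9. Pdgfra lost its call when any single 42.4 mg/kg mouse was left out (adjusted p = 0.0789 to 0.103) or any WT mouse other than WT 3 (0.0532 to 0.0794). Mmp2 lost it without treated mouse A or B, WT 2, WT 4 or the unnumbered WT mouse (0.0789 to 0.157), and Timp2 without treated mouse A (0.106) or B (0.0579). In all, 6 members lay entirely above WT (11.3% of all genes did): Timp2, Pdgfra, Fn1, Bgn, Lama2 and Fbln1. Against NT the Mmp2 difference was 0.43 (adjusted p = 0.468) and the NT difference from WT 0.39 (adjusted p = 0.358). Timp2 and Pdgfra likewise had NT log2 fold changes of 0.31 and 0.30 against WT, not called, so neither step alone passed the threshold for these 3 genes. Of the Mmp2 exon bases 24.3% lie under exons on the opposite strand, and of the Timp2 exon bases 7.44% under another gene on the same strand.

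Macrophage markers rose at 42.4 mg/kg against NT, a comparison in which Mmp2, Timp2 and Pdgfra were not called. Over 23 tested fibroblast markers, 6 of which are members, 1 rose at 42.4 mg/kg against NT: Scara5, a ferritin receptor of fibro-adipogenic progenitors, at 21.9 to 31.8 CPM against 6.15 to 14.2 CPM in the NT mice (log2 fold change 1.20, SE 0.20, adjusted p = 0.000423). Against WT 4 markers of this list were called higher and 1, Col15a1, lower. The summed fibroblast marker level was 2622 to 3071 CPM at 42.4 mg/kg, 1320 to 2942 CPM in NT and 1612 to 2471 CPM in WT, with 1 marker at 0 in every mouse of each group other than NT. Over 17 tested macrophage markers 10 rose at 42.4 mg/kg against NT and 0 fell, led by Ctss (2.87), Trem2 (2.58) and Lyz2 (2.53), and 4 rose at 21.2 mg/kg. The summed macrophage marker level was 70.8 to 113 CPM in WT, 82.9 to 157 CPM in NT, 165 to 226 CPM at 5.3 mg/kg, 147 to 333 CPM at 21.2 mg/kg, 306 to 455 CPM at 42.4 mg/kg, 232 to 252 CPM in Brush, 134 to 193 CPM in pacDNA-Scr and 77.1 to 133 CPM in free L9, with no marker listed at 0 throughout a group. Its part in the Lox, Mmp2, Timp2 and Pdgfra values was not tested. Tenocyte markers (520 to 805 CPM at 42.4 mg/kg, 519 to 931 CPM in NT) overlapped between the groups. As with fibroblast markers, 1 gene rose against NT in other lists too. These were 1 of 16 tenocyte, 1 of 12 adipocyte, 1 of 13 smooth muscle and pericyte and 1 of 10 muscle stem cell markers.

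**Figure D4:**
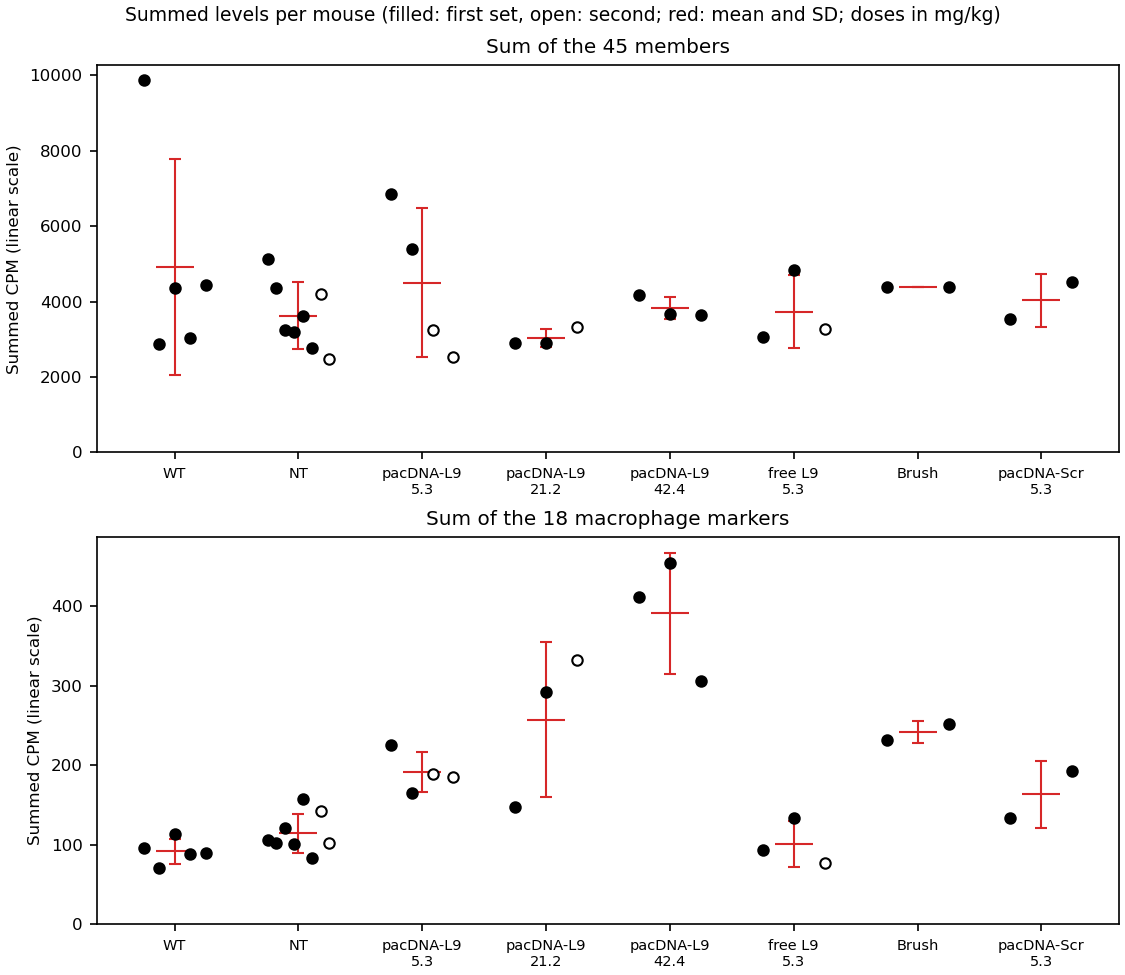
Summed CPM of the 45 members and of the 18 macrophage markers (y axes) in each mouse by group. The member sum is highest in WT 1 (9880 CPM) and lies within the combined WT and NT range in every treated mouse, whereas the macrophage sum of the 42.4 mg/kg mice (306 to 455 CPM) lies above that of every WT and NT mouse.

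Over the 7 lists of matrix pathways outside the members, 11 of 202 genes (5.45%) rose at 42.4 mg/kg against NT and 2 (0.990%) fell, beside the 2.28% and 0.862% of all genes given above, and 6 of the 11 stood in the list of proteases and inhibitors. Of 33 matrix proteases and inhibitors 6 rose and 1 fell against NT. Mmp3, stromelysin-1, was at 3.64 to 4.49 CPM in the treated mice and 0.256 to 1.58 CPM in NT (log2 fold change 2.27, SE 0.45, adjusted p = 0.00315). Mmp24 also passed the threshold and is counted in both the 11 and the 6. Its level, however, followed the deposited set, at 9.48 to 12.7 CPM in all 6 second-set libraries and at 0.236 CPM or below in the other 24, so no fold is given. Of 27 collagen processing genes 1 rose, the transglutaminase Tgm2 (1.28), and of 39 glycoproteins and proteoglycans 1 rose, the lubricin gene Prg4 (1.34). Of 34 TGF-beta pathway genes 2 rose, Tgif1 (1.34) and Tgfbr3 (0.95), and 1 fell, Acvr1 (-0.93), of 30 matrix receptors 1 rose, Sdc4 (2.30), with mouse B at 226 CPM and mice A and C at 39.1 and 54.7 CPM, and 0 of 23 other collagens and 0 of 16 basement membrane genes were called. Over the 7 lists 20 of 202 genes (9.90%) were higher than in WT, Mmp24 among them, and 16 (7.92%) were lower. The shares of all genes were 6.13% and 3.85%. Against WT 4 of the 23 other collagens fell and 0 rose, with Col6a6 (-2.47), Col11a2 (-2.13) and Col4a4 (-2.05) the furthest. The summed level of that collagen list was 87.6 to 106 CPM at 42.4 mg/kg and 91.4 to 261 CPM in WT (median 109), so the groups overlapped. Its dependence on WT 1 was not tested.

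The free oligonucleotide, the polymer and the scrambled conjugate showed no called member. With free L9, 25 of 45 members were above 0 (median 0.03), edgeR called 0 against 0.942% of all genes, and DESeq2 called 0 against 2.83%. Mouse B of this group carried much of the spread, with Postn at 10.7, 50.3 and 10.0 CPM, Pdgfra at 14.4, 48.3 and 15.3 CPM and Col15a1 at 41.2, 63.5 and 40.8 CPM. Without mouse B the median was -0.21, and 30 of 45 members were below 0. With Brush, 33 were above 0 (median 0.15), and with pacDNA-Scr 29 (median 0.06). The pacDNA-Scr median changed sign with the mouse left out, at 0.25 without A and -0.26 without B, where 31 members were below 0, and was -0.04 without NT 6. With both, edgeR called 0 members and 0% of all genes, and DESeq2 called 0 members (0.0154% of all genes with Brush and 0% with pacDNA-Scr). At an unadjusted p under 0.05 edgeR gave 0 members in each of the 3 control groups. In 0 members did all mice lie beyond all NT mice with free L9 (1.21% of all genes did) or with pacDNA-Scr (2.35%). Col1a1 was at 294 and 294 CPM in the Brush mice and 271 and 324 CPM in the pacDNA-Scr mice, and Timp2 at 181 and 181 CPM in Brush, above all NT mice (1 of 45 members, where 1.51% of all genes were). The 7 comparisons with NT share its 8 mice, so their values are not independent of each other.

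The remaining levels of the 8 members followed in every mouse were as follows. Col1a1 was at 204, 342 and 181 CPM in free L9. Pdgfra was at 32.0, 30.1, 20.3 and 19.5 CPM at 5.3 mg/kg, 26.4, 25.3 and 28.3 CPM at 21.2 mg/kg, 33.0 and 29.2 CPM in Brush and 21.9 and 22.8 CPM in pacDNA-Scr, all below the 42.4 mg/kg mice. Col3a1 was at 276, 207 and 261 CPM at 42.4 mg/kg, 254, 502 and 297 CPM in free L9, 549 and 476 CPM in Brush and 400.3 and 435 CPM in pacDNA-Scr. Col4a1 was at 309, 354, 142 and 141 CPM at 5.3 mg/kg, 187, 228 and 206 CPM at 42.4 mg/kg, 181, 162 and 179 CPM in free L9, 217 and 151 CPM in Brush and 180.3 and 208 CPM in pacDNA-Scr. Both collagens stayed inside the combined WT and NT range in all of these mice. Postn was at 20.8, 39.0, 15.4 and 10.6 CPM at 5.3 mg/kg, 7.05, 8.87 and 17.6 CPM at 21.2 mg/kg, 12.6, 10.9 and 18.3 CPM at 42.4 mg/kg, 12.2 and 10.5 CPM in Brush and 5.68 and 19.6 CPM in pacDNA-Scr. Ctgf was at 36.9, 28.8, 29.7 and 27.3 CPM, 23.3, 24.4 and 27.6 CPM and 22.7, 33.2 and 25.8 CPM at the rising doses, 35.3, 38.1 and 41.2 CPM in free L9, 16.4 and 49.4 CPM in Brush and 32.9 and 63.2 CPM in pacDNA-Scr. The single mouse above the WT maximum for Ctgf was pacDNA-Scr B. Tgfb1 was at 12.1, 9.47, 7.00 and 8.33 CPM, 8.82, 8.87 and 7.04 CPM and 17.5, 10.5 and 10.7 CPM at the same doses, 16.3, 8.19 and 10.0 CPM in free L9, 7.13 and 11.0 CPM in Brush and 8.26 and 13.8 CPM in pacDNA-Scr. Timp1 was at 2.31, 3.23, 1.10 and 1.81 CPM, 0.722, 1.68 and 1.97 CPM and 1.69, 0.827 and 1.43 CPM, 3.42, 0 and 0.894 CPM in free L9, 1.07 and 2.33 CPM in Brush and 0.820 and 1.94 CPM in pacDNA-Scr. The 0 of free L9 mouse B allows up to 0.179 CPM from 3 counts, for counting error only. Neither growth factor nor Timp1 separated any treated group from NT.

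The members varied more between mice of a group than most genes. The SD of their log2 levels around the group means had a median of 0.56, against 0.40 over all genes tested and 0.32 over the 11992 genes at least as high as the lowest member, and 42 of the 45 were above the latter. The variation was shared. Over the residuals of all 30 libraries, the 105 pairs of collagens had a median Pearson correlation of 0.75 (0.71 without WT 1), against 0.30 among the 435 pairs of other members. Col1a1 and Col1a2, the chains of type I collagen, had r = 0.98, Col4a1 and Col4a2 0.97, Col6a1 and Col6a2 0.96, and Fmod and Comp, which encode the tendon proteins fibromodulin and cartilage oligomeric matrix protein, 0.97. Pdgfra and Col1a1 had r = 0.04 (0.25 without WT 1). These are descriptions over libraries that share depth and dissection, with no test.

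**Figure D5:**
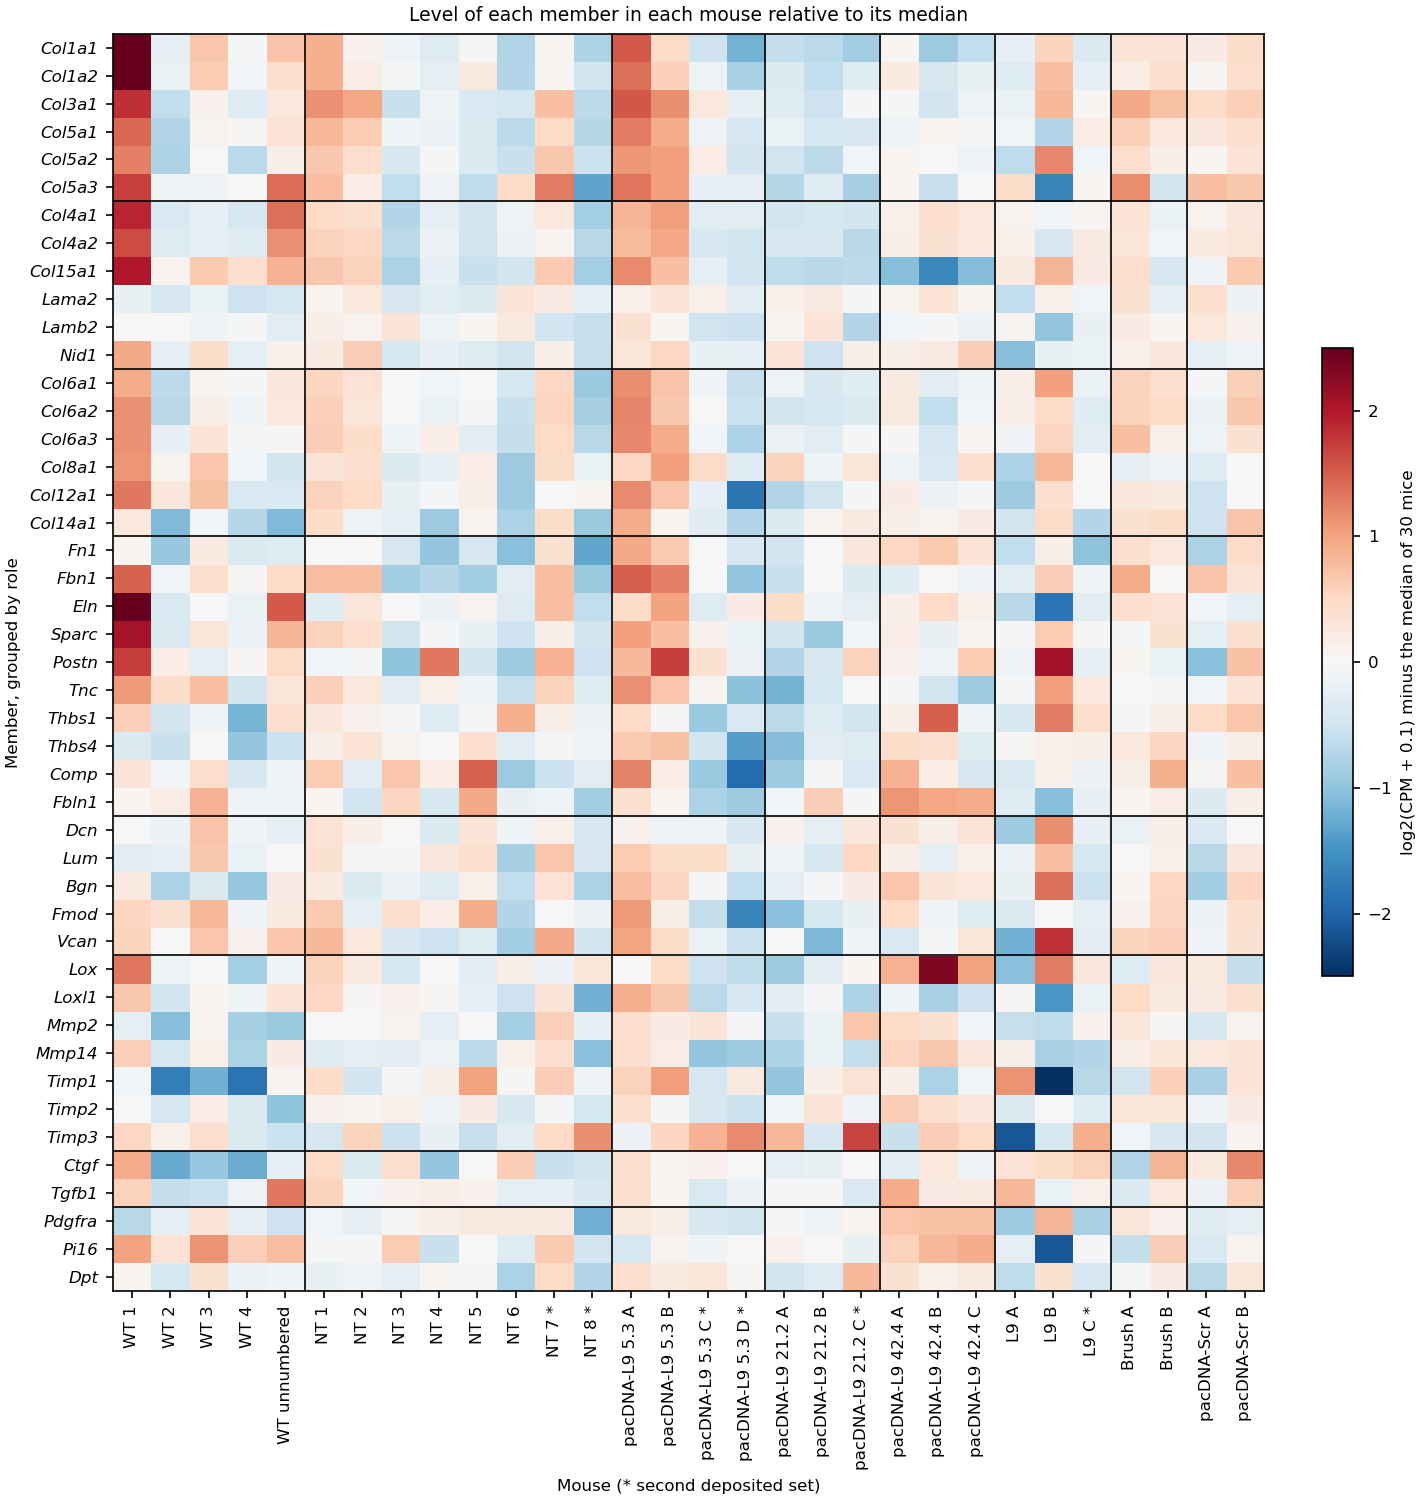
Level of each of the 45 members (rows, by role) in each of the 30 mice (columns, by group), as log2(CPM + 0.1) minus the member's median over mice. WT 1 and the 5.3 mg/kg mice A and B show as columns high in most collagens, and the 42.4 mg/kg mice as high in Lox and Pdgfra and low in Col15a1.

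The ratio of Col1a1 to Col1a2 counts, which does not depend on library scaling, was 1.26 in WT 1, 0.864 to 1.08 in the other WT mice, 0.720 to 0.895 in NT, and 0.763, 0.619 and 0.650 in the 42.4 mg/kg mice. It was 0.756, 0.849 and 0.600 at 21.2 mg/kg and 0.992, 0.817, 0.674 and 0.679 at 5.3 mg/kg, so the groups of treated mice overlapped with each other.

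Because L9 is complementary to CUG repeats, the spliced transcripts of the members were searched for runs of at least 3 CTG units (GENCODE M39, sense strand). Of the 45 members 10 held one (22.2%), against 20.9% of 17420 tested genes with a transcript. The longest run in a member was 4 units, in Col5a1, Fn1, Eln, Postn and Pi16, against 26 units over all genes. None of the 10 was called in any comparison by edgeR, and their median log2 fold change at 42.4 mg/kg against NT was 0.15, against -0.05 for the other 35. With free L9 the order was the opposite, at -0.27 (8 of 10 below 0) against 0.10.

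As collagen chain genes moved together, the promoters of the members were read for shared short motifs. Of the 45 members 31 had an entry in the RefSeq promoter table (GRCm38.p6), and the 250 bases before each start were searched on both strands. CCAAT was present in 10 of 31 (32.3%), against 33.8% of 32851 promoters of the same length, TATAAA in 3 (9.68% against 12.4%) and TGANTCA, the AP-1 motif, in 1 (3.23% against 6.75%). A member with several promoter entries counted once, if any entry held the motif, whereas the background counts every entry. Shown are 30 bases around CCAAT (capitals) in a type I collagen chain, a type IV collagen chain, and the members Timp2 and Pi16, at 109, 32, 162 and 64 bases before the start in that order, as sequence context only.
Col1a2, chr6:4505497-4505526, plus strand: aaaagaatggaaCCAATttaagaagccccg
Col4a2, chr8:11312761-11312790, plus strand: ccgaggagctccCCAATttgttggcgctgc
Timp2, chr11:118355556-118355585, minus strand: cgtgtgtgagtgCCAATccagcgcgcagtc
Pi16, chr17:29318806-29318835, plus strand: tcctcatcttacCCAATcctgtaggggcag
CCAAT was no more frequent in the members than in all promoters. Col4a1 (minus strand) and Col4a2 (plus strand) start 21 bases apart on chromosome 8, with the first bases of the 2 transcripts overlapping, and their 250-base windows lie on either side and share no base.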

How the data were processed

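Poly(A)-enriched libraries of quadriceps RNA were sequenced as paired 150-base reads. The authors deposited 1 table of raw counts per gene for 30 libraries, aligned with HISAT2 2.0.5 to GRCm39. The paper lists Rsubread among its analysis packages but does not say which tool counted the reads. The submitters' notes also name DESeq2. The annotation release, the strand setting and the treatment of reads with several matches are not given in the sources used here.

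Library totals were 13605309 to 26956558 counts, and the lowest count of a member was 0 (Timp1, free L9 B) or, apart from Timp1, 49 (Vcan). From the deposited counts, edgeR 4.0.16 (R 4.3.3) filtered genes with filterByExpr over the 8 conditions, scaled by TMM and fitted a robust quasi-likelihood model of all 30 libraries with 8 conditions and the deposited set (9 coefficients, 21 residual degrees of freedom). Adjusted p-values are Benjamini-Hochberg over 17518 genes, with a threshold of 0.05 and no limit on fold. The SE is the absolute log2 fold change divided by the square root of F. CPM use TMM library sizes. DESeq2 1.42.0 was an alternative, as were other scalings, filters, covariates, a replicate block and leaving out each mouse in turn. The code of the fit was checked on simulated counts, drawn independently for each gene with the same dispersion for all genes. The members varied more than most genes and varied together, so that check does not measure what could be detected in them.

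The 45 members and the pathway and cell type lists were chosen with earlier results of these data known. Members called in a comparison, and Col1a1, Col3a1, Col4a1, Postn, Ctgf, Tgfb1, Timp1 and Pdgfra whatever their result, were given in every mouse, and up to 3 called genes of each list were named per comparison by size of change, except a few that are not reported here. Other members with values were chosen after their values were seen. Motif matches and CTG runs came from RefSeq promoters (GRCm38.p6) and GENCODE M39 transcripts.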

Additional observations from a re-analysis of the deposited data

Results flagged for a closer look

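Of 135 checks of 45 members in the groups of 4 to 10 mice, 14 had a mouse whose gap to its nearest neighbour exceeded Dixon's 95% critical value. Chance would give about 6.75 if CPM were normally distributed within groups, which was not tested. Members varied together, so the flags are not independent. Of the 14 flags 7 belonged to WT 1, the only male WT mouse. In CPM, with the nearest WT mouse in parentheses, WT 1 stood at 1934 for Col1a1 (385), 1533 for Col1a2 (413), 1019 for Col3a1 (344), 142 for Col15a1 (64.9), 97.1 for Fbn1 (49.0), 39.1 for Postn (16.7) and 37.5 for Lox (14.8).

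WT 3 stood apart in members that WT 1 did not lead, the small proteoglycans and a fibulin. It had 422 CPM of Dcn, the collagen-binding proteoglycan decorin (nearest 260), 61.4 CPM of Lum (nearest 38.3) and 20.1 CPM of Fbln1 (nearest 12.6).

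In the NT group, NT 1 was high in both type I collagen chains, at 435 CPM of Col1a1 (nearest 252) and 488 CPM of Col1a2 (nearest 310). NT 6 was high in Thbs1, at 24.0 CPM (nearest 15.6), and NT 8, of the second deposited set, was low in Pdgfra, at 11.6 CPM (nearest 23.4).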

How the results depend on the processing

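No called member changed direction in any alternative. Col15a1 against WT at 42.4 mg/kg stayed past the threshold in all 20 alternatives, Timp2 in 16, Mmp2 in 11, Col1a1 in 9 and Pdgfra in 9 of 20, and Lox against NT in 11 of 23. Col1a1 ranged from -2.19 to -0.80 and Lox from 0.82 to 1.68 as single mice were left out.

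Between NT and WT, where 0 members were called, 1 was called with at least 10 counts in every library (Pi16), 2 with only the groups compared (Thbs4 and Pi16), 2 with DESeq2 (Eln and Pi16), 1 without free L9 B, and 0 to 3 with each mouse left out, with 3 when NT 7 was left out (Col15a1, Eln and Pi16). With a replicate block over WT and NT mice of shared numbers 1 to 4, 1 was called (Pi16), against 0 in the same mice without the block. The numbers were not shown to pair the mice, since their residuals correlated at -0.05 to 0.19 within a number.

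For 42.4 mg/kg against NT, where 1 was called, the count was 0 with library size alone, without a filter on low counts, in the first deposited set only and with the naming style of the libraries as a term. It was 2 with DESeq2 and 2 without free L9 B (Lox and Pdgfra), and 0 to 1 with each mouse left out. For 42.4 mg/kg against WT, where 5 were called, it was 1 with library size alone, 2 without a filter, 2 without the set term and 3 with the naming style as a term, and 1 (without 42.4 mg/kg B) to 6 (without WT 3) with each mouse left out. In the other 5 comparisons 0 members were called in every alternative, leave-one-out fits included (0 to 0). Leaving out free L9 B, the fits within each deposited set and the unblocked fit were chosen after seeing the data. Groups of 2 or 3 mice limit what could be detected. For most alternatives the share of all genes called in the same fit is not given here. The counts in this section therefore show only how the calls moved between fits, not how the members compare with all genes.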
